A study of Homo sapiens with 8 samples.

Results

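The sgRNAs described here target Toll-like receptors, the IRAK and RIP kinases that relay receptor signals, the IKK kinases and NFKB1. They were taken from the screen by gene symbol alone (TLR, IRAK or RIPK followed by a digit, symbols that begin with IKBK, and CHUK, TBK1, NFKB1 or NFKB2), without use of any measured value. The rule found 91 sgRNAs against 13 genes, with 7 sgRNAs each, of 10429 sgRNAs in the library. Of those, 9929 target 1420 genes and 500 are control sgRNAs. Each symbol was matched in the RefSeq annotation of GRCh38.p14. The sgRNA sequences and cut sites were not analysed here, so position in the gene and cutting at related genes were not checked.

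The screen asked which druggable genes change the level of PRMT5, an arginine methyltransferase, in COV362 cells, an established line of high-grade serous ovarian cancer. The cells were a chemo-resistant derivative of this line, labelled wild type, and all of them expressed Cas9, which cuts the gene matched by the sgRNA that a cell carries. After transduction with the sgRNA library the culture was split into 4 replicates, stained for PRMT5 and sorted into the cells with the most PRMT5 (PRMT5 high, 4 libraries) and those with the least (PRMT5 low, 4 libraries). Both populations came from the same transduced cells, so the spread between libraries is that of parallel cultures and not of separate transductions.

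Toll-like receptors sense microbial molecules. TLR7 binds single-stranded RNA and TLR9 binds unmethylated CpG DNA, both inside endosomes, and they are best known from plasmacytoid dendritic cells and B cells. Their adaptor MYD88 recruits IRAK4 and IRAK1, the signal reaches the IKK complex with its kinases CHUK (IKK-alpha) and IKBKB (IKK-beta), and phosphorylation of the inhibitor IkappaB then frees NF-kappaB dimers, of which the NFKB1 product p50 is a subunit. RIPK1 feeds the same complex from tumour necrosis factor receptors, RIPK2 from the NOD receptors, and the IKK-related kinases TBK1 and IKBKE activate interferon regulatory factors.

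Values are CPM, the share of a library's sgRNA reads scaled to a fixed total, given by the authors as the mean over the 4 libraries of a population. The log2 ratio is log2 of CPM + 1 in PRMT5 low over CPM + 1 in PRMT5 high. A negative ratio therefore marks an sgRNA more abundant in cells with high PRMT5, the direction in which loss of a gene goes with more PRMT5. The sign follows the legend of the study's screen plot, since the methods state it the other way round. The SE of a single sgRNA comes from the deposited variance over libraries, and the SD of a gene is the spread over its 7 sgRNAs, not over biological replicates. The p-values rest on variances over 4 libraries a population and are approximate, since the pooled values allow no exact test. The recovered depth was 16166859 reads for PRMT5 high and 19117396 for PRMT5 low. The share of reads estimated by the authors, times this depth, put the 91 sgRNAs between 279 and 5720 reads in PRMT5 high. In PRMT5 low it put them between 324 and 7564 reads. These are estimates and not counted reads. Reads were amplified by PCR and carry no molecular identifiers, so depth covers the counting error only.

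None of the 13 genes was called, that is, had a one-sided p under 0.01 from Fisher's method with a mean log2 ratio beyond 0.25 in that direction. Over all 1420 genes, 0.845% passed in PRMT5 high and 0.704% in PRMT5 low. At an unadjusted one-sided p under 0.05 there was 1 member in PRMT5 high, IRAK3, against 9.3% of all genes, and 0 members in PRMT5 low, against 8.59% of all genes. The means of 11 members lay within 0.1 of 0 on the log2 scale (84.6%, beside 63.2% of all genes), and by the median over sgRNAs 9 members did (beside 58.7% of all genes). The means outside this range were those of the Toll-like receptors, near -0.25 toward PRMT5 high. The 91 sgRNAs split into 47 more abundant in PRMT5 high (51.6%, beside 50.2% of all targeting sgRNAs) and 44 more abundant in PRMT5 low. Their median log2 ratio was -0.02, beside -0.0018 for all targeting sgRNAs.

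TLR7 lies on chromosome X from 12867072 to 12890361 of GRCh38.p14 and TLR9 on chromosome 3 from 52221080 to 52225645. For TLR9, 6 of 7 sgRNAs were more abundant in PRMT5 high. TLR9_3 stood at 109 CPM in PRMT5 high and 82.9 CPM in PRMT5 low, TLR9_7 at 74.6 and 56.7 CPM, TLR9_4 at 46.1 and 37.2 CPM, and TLR9_2, the least abundant of the gene, at 32.6 and 24.5 CPM. TLR9_6 stood at 168 and 149 CPM and TLR9_1 at 49.5 and 45.2 CPM. The exception was TLR9_5, with 97.8 CPM in PRMT5 high and 102 CPM in PRMT5 low. The log2 ratios ran from -0.40 for TLR9_2 to 0.06 for TLR9_5, and no single sgRNA reached a one-sided p under 0.05. The mean of TLR9 was -0.246 (SD 0.17 over sgRNAs, SE 0.115 from the library variances), a 1.19-fold higher abundance in PRMT5 high.

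TLR7 reached a similar mean in another way. TLR7_7 stood at 69.8 CPM in PRMT5 high and 30.8 CPM in PRMT5 low, a log2 ratio of -1.16 (SE 0.28, adjusted p = 0.595 over all sgRNAs with Benjamini-Hochberg adjustment). Among the 9929 targeting sgRNAs, 15 had a ratio this low or lower, TLR7_7 included. TLR7_4 followed with 93.4 and 73.9 CPM (log2 ratio -0.33) and TLR7_2 with 103 and 88.8 CPM (-0.21). The ratios of TLR7_5 and TLR7_6 were both -0.11, at 95.0 and 88.1 CPM and at 57.1 and 52.8 CPM. TLR7_3, with 39.0 and 40.6 CPM, and TLR7_1, with 123 and 132 CPM, were slightly more abundant in PRMT5 low. The mean of TLR7 was -0.25 (SD 0.43, SE 0.128), and its median over sgRNAs was -0.11, whereas the median of TLR9 was -0.30. Without TLR7_7 the mean of TLR7 moved to -0.10.

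In the order of all 1420 gene means, TLR7 ranked 35 and TLR9 ranked 39 from the PRMT5 high end. A mean below -0.2 was found for 4.65% of all genes. By Fisher's method the one-sided p toward PRMT5 high was 0.0785 for TLR7 (adjusted p = 0.640 over 1420 genes) and 0.0720 for TLR9 (adjusted p = 0.611). TLR7 thus passed the limit on the mean but not that on p, and TLR9 passed neither. The 14 sgRNAs against both receptors had a median of -0.19, with 11 more abundant in PRMT5 high, beside 50.2% of all targeting sgRNAs. This count covers the 2 members with the lowest means.

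IRAK4 starts the kinase relay below MYD88, IRAK1 is its substrate and IRAK3, also called IRAK-M, is an inhibitory member of the family. Their 21 sgRNAs split into 10 more abundant in PRMT5 high and 11 in PRMT5 low, with a median of 0.05. IRAK3, on chromosome 12 from 66189214 to 66254622, had the smallest one-sided p among the members, 0.0123 toward PRMT5 high (Fisher's method, adjusted p = 0.401), yet its mean was -0.0063 (SD 0.25). The p came from IRAK3_5, which stood at 127 CPM in PRMT5 high and 97.4 CPM in PRMT5 low, a log2 ratio of -0.38 with an SE of 0.046 (adjusted p = 0.0932 over all sgRNAs). This was the smallest sgRNA p among the members. In both populations IRAK3_5 sat at the floor of the variance estimate, that of read counting alone, which held for 3 of the 91 sgRNAs and 2.43% of all targeting sgRNAs.

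The other sgRNAs of IRAK3 had smaller ratios of both signs. IRAK3_7 stood at 126 CPM in PRMT5 high and 109 CPM in PRMT5 low and IRAK3_1 at 102 and 93.4 CPM. IRAK3_2, with 50.7 and 53.6 CPM, IRAK3_4, with 48.9 and 52.1 CPM, and IRAK3_6, with 42.6 and 46.7 CPM, were higher in PRMT5 low by less than their SE, the smallest of which was 0.36. IRAK3_3, with 17.2 and 22.5 CPM, was the least abundant of all 91 sgRNAs by the mean of both populations and had the highest ratio of the gene, 0.36 (SE 0.595). The 3 more abundant sgRNAs of IRAK3 were thus higher in PRMT5 high and the 4 less abundant ones higher in PRMT5 low. Without IRAK3_5 the one-sided p of the gene was 0.576, and with variances taken from the trend over abundance the p was 0.397 for the gene and 0.0714 for IRAK3_5. With each sgRNA left out in turn, the p of IRAK3 by Fisher's method ran from 0.00581 to 0.576. The smallest was found without IRAK3_3, where the mean was -0.07 and the gene was not called.

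IRAK4 and IRAK1 stayed close to 0. IRAK4 had a mean of -0.02 (SD 0.14) with ratios from -0.17 for IRAK4_6, at 138 CPM in PRMT5 high and 122 CPM in PRMT5 low, to 0.16 for IRAK4_2. The latter was the most abundant of the 91 sgRNAs, with 355 CPM in PRMT5 high and 395 CPM in PRMT5 low (SE 0.058, adjusted p = 0.791). IRAK1 had a mean of -0.0088 (SD 0.24). Its ratios ran from -0.28 for IRAK1_5, at 63.7 and 52.2 CPM, to 0.30 for IRAK1_7, at 36.7 and 45.3 CPM (SE 0.129, adjusted p = 0.854). IRAK4_2 and IRAK1_7 were the only members past a one-sided p of 0.05 toward PRMT5 low, 2.20% of the 91 beside 5.66% of all targeting sgRNAs. IRAK4_2 sat at the floor of the variance in PRMT5 high and IRAK1_7 in PRMT5 low.

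No RIP kinase passed the gene test. RIPK1, which joins survival and cell death signals downstream of tumour necrosis factor, had a mean of -0.06 (SD 0.26), from -0.49 for RIPK1_5, at 24.2 CPM in PRMT5 high and 17.0 CPM in PRMT5 low, to 0.26 for RIPK1_4, at 94.1 and 113 CPM. Its sign depended on the weight of the sgRNAs, since the summed CPM of RIPK1 was higher in PRMT5 low, with a log2 ratio of 0.06. RIPK2, the kinase of the NOD receptors, had a mean of 0.05 (SD 0.21), from -0.24 for RIPK2_3, at 56.8 and 48.1 CPM, to 0.345 for RIPK2_5, at 96.9 and 123 CPM. Its one-sided p toward PRMT5 low, 0.109, was the smallest of the members in that direction (Fisher's method, adjusted p = 0.772). Without RIPK2_4, which sat at the floor of the variance in both populations, the p of RIPK2 was 0.241. With variances from the trend over abundance it was 0.410, and IKBKB had a smaller p, 0.303. RIPK4, a relative known from epidermal differentiation, had a mean of 0.03 (SD 0.28). RIPK4_7 was lowest at -0.36, with 137 CPM in PRMT5 high and 107 CPM in PRMT5 low (SE 0.125, adjusted p = 0.712), while RIPK4_5 was highest at 0.35, with 83.9 and 107 CPM.

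Neither catalytic subunit of the IKK complex passed the gene test. CHUK, which is also needed for the alternative NF-kappaB route, had a mean of -0.04 and the second largest spread of the 13 genes (SD 0.35). CHUK_1 stood at 36.9 CPM in PRMT5 high and 55.7 CPM in PRMT5 low, a ratio of 0.58 whose SE was 0.39 (adjusted p = 0.890), and CHUK_2 was lowest with -0.36, at 55.5 and 43.0 CPM. Its most abundant sgRNA, CHUK_6, stood at 184 and 151 CPM. The mean of CHUK depended on CHUK_1 and on the summary, with -0.15 without CHUK_1, -0.22 by the median over sgRNAs and -0.15 by summed CPM. IKBKB, the main kinase of IkappaB, had a mean of 0.06 (SD 0.26). IKBKB_6 was highest with 0.44, at 87.1 and 118 CPM, and IKBKB_3 lowest with -0.25, at 143 and 120 CPM. IKBKB_5 had a ratio of -0.23, with 87.4 and 74.4 CPM and an SE of 0.097 (adjusted p = 0.801), and sat at the floor of the variance in PRMT5 low.

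TBK1 and IKBKE, which are close relatives, differed in abundance more than in ratio. TBK1 had the lowest abundance of the 13 genes, with a mean of 59.4 CPM in PRMT5 high and 56.5 CPM in PRMT5 low, and 7.32% of all genes were at this level or lower. All 7 of its sgRNAs lay between 38.4 and 74.2 CPM as means of both populations. Its mean ratio was -0.10 (SD 0.27), and 5 of 7 ratios were negative. Without TBK1_1 the mean was -0.0076. TBK1_1 was lowest with -0.63, at 46.8 CPM in PRMT5 high and 30.0 CPM in PRMT5 low (SE 0.39, adjusted p = 0.845), and TBK1_2 was highest with 0.24, at 47.3 and 56.0 CPM. IKBKE had the highest mean of the 13 genes, 0.08, and the smallest spread (SD 0.12). Its ratios ran from -0.06 for IKBKE_4, at 62.6 and 60.2 CPM, to 0.22 for IKBKE_1, at 104 and 121 CPM, and its one-sided p toward PRMT5 low was 0.301.

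NFKB1, the precursor of p50, had a mean of -0.02 (SD 0.28) and was the only member with more than 1 sgRNA past a one-sided p of 0.05. NFKB1_3 stood at 205 CPM in PRMT5 high and 159 CPM in PRMT5 low, a ratio of -0.37 (SE 0.124, adjusted p = 0.783). NFKB1_6 stood at 146 and 113 CPM, a ratio of -0.36 (SE 0.159, adjusted p = 0.773). NFKB1_2 went the other way with 0.40, at 53.4 and 70.9 CPM (SE 0.476), and NFKB1_1 with 0.20, at 127 and 146 CPM. The ratio of NFKB1_4, also at the smallest variance in both populations, was 0.04 with an SE of 0.039. The gene had 4 of 7 ratios above 0 and did not pass (Fisher's method, one-sided p = 0.196 toward PRMT5 high).

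Counted over sgRNAs, 6 of 91 (6.59%) passed a one-sided p of 0.05 toward PRMT5 high, beside 6% of all targeting sgRNAs, and these 6 were spread over 5 genes. No member passed an adjusted p of 0.05 over all sgRNAs in either direction, where 0 targeting sgRNAs passed toward PRMT5 high and 4 toward PRMT5 low. The SE of a member had a median of 0.23, close to the SD of 0.26 over the 91 ratios. Ratios beyond 0.5 in either direction were found for 3 members, TLR7_7, TBK1_1 and CHUK_1 (3.30%), and for 8.46% of all targeting sgRNAs. These shares were not matched for abundance. By the mean of both populations the members began at 19.9 CPM and all targeting sgRNAs at 0 CPM. Control sgRNAs, which target no gene, had a mean ratio of 0.02 (SD 0.25). Of the controls, 6.6% passed a one-sided p of 0.05 toward PRMT5 high and 9% toward PRMT5 low. They were more abundant, with a median of 123 CPM beside 85.3 CPM for targeting sgRNAs.

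In abundance the members lay across the range of the library, with gene means from 57.9 CPM for TBK1 to 157 CPM for IRAK4 and a median of 93.0 CPM, beside 93.6 CPM over all genes. From the lowest the order was TBK1, IRAK3 with 70.6, TLR9 with 76.7, TLR7 with 77.7, CHUK with 78.2, RIPK4 with 88.7, RIPK2 with 93.0, IKBKB with 95.7, RIPK1 with 99.6, NFKB1 with 112, IRAK1 with 123, IKBKE with 134 and IRAK4 with 157 CPM. Within a gene the 7 sgRNAs often differed more than this, from 56.4 to 375 CPM in IRAK4 and from 20.6 to 214 CPM in RIPK1, so neighbours in this order overlap in their sgRNAs. A starting library was not analysed here, and these levels do not separate the makeup of the library from growth.

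Other genes of the pathway were described from 3 lists of 33 genes in all, each of them measured. Among 19 ligands and receptors, 6 means were above 0 and 13 below, with a median of -0.06. Of all 1420 genes, 731 had a mean below 0. In this list 1 gene was called, toward PRMT5 high, beside 0.845% of all genes. This was IL1B, the cytokine interleukin-1 beta, with a mean of -0.25 (SD 0.34) and a one-sided p toward PRMT5 high of 0.000688 (Fisher's method, adjusted p = 0.103). Its sgRNA IL1B_3 stood at 84.7 CPM in PRMT5 high and 45.2 CPM in PRMT5 low, at the smallest variance in both. The mean lay just past the limit, and without IL1B_3 it was -0.15 and the gene was not called. With variances from the trend over abundance the p of IL1B by Fisher's method was 0.0575. The receptor of this cytokine, IL1R1, had a mean of the other sign, 0.13 (SD 0.28), with a one-sided p toward PRMT5 low of 0.00359 (adjusted p = 0.232). By Fisher's method the p of IL1R1 was 0.0694 without IL1R1_7 and 0.111 with variances from the trend. Its median over sgRNAs was 0.03. TNFSF13B and CD40LG, ligands of the tumour necrosis factor family that act on B cells, had means of -0.11 and -0.09. Their one-sided p-values toward PRMT5 high by Fisher's method were 0.00650 and 0.0345 (adjusted p = 0.289 and 0.473). Without TNFSF13B_4 the p of TNFSF13B was 0.143, and without CD40LG_7 that of CD40LG was 0.267. CD14, a co-receptor of Toll-like receptors, had a mean of 0.12 and TNFRSF13C, a receptor of TNFSF13B, of -0.02. One-sided p-values toward PRMT5 low by Fisher's method were 0.0302 and 0.0131 (adjusted p = 0.508 and 0.339). Without CD14_1 the p of CD14 was 0.360, and without TNFRSF13C_4 that of TNFRSF13C was 0.261. Both sgRNAs sat at the smallest variance in both populations. For TNFRSF13C the mean and the test differed in sign.

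The 5 relays all had means above 0, beside 48.5% of all genes, with a median of 0.05. The smallest, 0.0033 for XIAP, became -0.0075 when centred on the control median. BIRC3, a ubiquitin ligase of the receptor complex, had a mean of 0.15 (SD 0.16, adjusted p toward PRMT5 low = 0.428) and MAP3K7, the kinase TAK1 that activates the IKK complex, of 0.14 (SD 0.24, adjusted p = 0.923). Of 9 target genes of NF-kappaB, 5 means were above 0 and 4 below, and none was called. CCL2, a chemokine, had a mean of 0.19 and a one-sided p toward PRMT5 low of 0.000306 (Fisher's method, adjusted p = 0.0888). Its sgRNA CCL2_7 stood at 78.8 CPM in PRMT5 high and 128 CPM in PRMT5 low, also at the smallest variance in both. Without CCL2_7 the one-sided p of the gene by Fisher's method was 0.245, and with variances from the trend it was 0.0426. CXCL8, the chemokine interleukin-8, had a mean of 0.20 (SD 0.20, adjusted p = 0.520), and PTGS2, the cyclooxygenase COX-2, of -0.247 (SD 0.25, adjusted p toward PRMT5 high = 0.726). Over the 33 genes the median was -0.02, with 16 means above 0 and 17 below. At an unadjusted one-sided p under 0.05 by Fisher's method there were 3 of them toward PRMT5 high and 6 toward PRMT5 low. Of all genes, 9.3% and 8.59% passed.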

How the data were processed

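sgRNA abundance was measured in 4 PRMT5 high and 4 PRMT5 low libraries. Reads were assigned to sgRNAs and counted by the authors, who compared the populations with CB2. FastQC and hg38 are named in the submitters' processing notes, with versions not given in the sources used here. Each deposited CPM value is the authors' mean over the 4 libraries of a population. The deposited fraction is the share of reads that the authors estimated for an sgRNA, beside its variance over libraries. The tables used hold values pooled over libraries only, and neither an SD between libraries nor a count test was made. The deposited fold changes, scores and p-values of the authors' comparison and their gene table were not used.

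The CB2 test was recomputed as the difference of the fractions over the root of the summed variances, with Welch-Satterthwaite degrees of freedom. One-sided p-values were combined per gene by Fisher's method and adjusted by Benjamini-Hochberg over 1420 genes (Python 3.11.15, scipy 1.17.1, limma 3.58.1 for an alternative). A gene was called at a p under 0.01 with a mean beyond 0.25 in both directions, as in the legend of the study's screen plot. The methods give 0.001 toward PRMT5 low, which was among the alternatives. The script was tested on simulated data. SEs are by the delta method from the fractions. Depth came from sgRNAs whose variance is that of counting alone, where read totals were whole within 0.05 reads.

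The members, lists and thresholds were chosen with earlier results of these data known. All members are named, with the sgRNAs past a one-sided p of 0.05 and the highest and lowest of each gene. Of each list the genes past that p and those with the largest means are named. Ratios of other members, TLR7_7's count and the order of abundance were chosen after the values were seen. Alternatives were pseudocounts of 5 and 10, leaving out sgRNAs under 20 CPM, subtracting the median of the control sgRNAs, the median per gene, Stouffer's method, limma, variances from the trend over 20 abundance bins, stricter limits and leaving out sgRNAs. Summed CPM and the alternatives for the list genes were added after the data were seen.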

Additional observations from a re-analysis of the deposited data

Results flagged for a closer look

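TLR7_7, with a log2 ratio of -1.158, lay far from the other sgRNAs against TLR7. Its gap to the next sgRNA was 0.658 of the range over the 7 sgRNAs, above the critical value of Dixon's test for a group of this size. A gap past the critical value is found by chance in about 1 of 20 groups. Of the 13 genes looked at, TLR7 was the only one above the value. The next largest gap ratio was 0.505, for TBK1_1. The 7 sgRNAs are not samples, and whether TLR7_7 cuts elsewhere was not tested.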

How the results depend on the processing

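In every alternative run, and with each sgRNA left out in turn, 0 members were called in PRMT5 high and 0 in PRMT5 low. Leave-one-out means ran from -0.31 to -0.10 for TLR7 and from -0.30 to -0.22 for TLR9. TLR9 had a mean of -0.257 when centred on the control median, but its p stayed at 0.0720. Stouffer's method gave one-sided p-values of 0.0224 for TLR9 and 0.0519 for TLR7. With limma, which takes the 7 sgRNAs of a gene as replicates and so measures the spread over sgRNAs and not over libraries, the adjusted p toward PRMT5 high was 0.402 for TLR9 and 0.656 for TLR7. The unadjusted limma p toward PRMT5 high was 0.00747 for TLR9 and 0.0249 for TLR7. Both were under 0.05, as was that of 6.2% of all genes. The limma p of TLR9 passed the limit of 0.01. Its mean of -0.246 did not pass the limit of 0.25 on the mean, so TLR9 was not called. By the median over sgRNAs IRAK1, IRAK3, NFKB1 and RIPK1 changed sign, and by summed CPM IRAK1, IRAK4 and RIPK1 did.

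With variances from the trend, 2 of the 91 sgRNAs passed a one-sided p of 0.05 toward PRMT5 high, NFKB1_3 and TLR7_7, and 0 toward PRMT5 low, beside 312 and 298 of 9929 targeting sgRNAs. Over all genes, the 12 calls in PRMT5 high became 7 by the median, 5 at a p limit of 0.001, 3 at an adjusted p of 0.05 and 28 with limma. The 10 calls in PRMT5 low became 4 with a pseudocount of 10 and with the trend, 2 at 0.001, 0 at an adjusted p of 0.05 (Fisher's method with Benjamini-Hochberg adjustment and the limit on the mean kept, where 122 genes had an unadjusted p under 0.05) and 16 with limma. Of the 33 list genes, the 1 call in PRMT5 high, IL1B, became 0 with pseudocounts of 5 and 10, by the median, with the trend, at an adjusted p of 0.05 and with limma. It was also lost without IL1B_1, IL1B_3 or IL1B_6, and CCL2 was called in PRMT5 low without CCL2_3. The cause was not tested.

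No paired analysis was possible because the files hold only values pooled over the libraries of a population, and no library was left out. A mean over 7 sgRNAs had a median SE of 0.108 from the library variances.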
